A study of Homo sapiens with 12 samples.

Results

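SK-N-SH cells transfected with a control siRNA (siNC) were compared with SK-N-SH cells given the solvent DMSO, 3 RNA libraries against 3. The libraries were picked by their treatment label alone and make up 6 of the 12 in the series. All 18739 genes of the deposited tables, joined on their gene identifier, were members of the comparison, and 15051 passed the filter on low counts and were tested. Both groups carry the WT genotype label, and both served the study as controls. The siNC cells were the control for an siRNA against SUV39H1, a histone H3K9 methyltransferase. The DMSO cells were the control for chaetocin at 50 nM, a compound used to inhibit that enzyme. The submitters' design text calls the samples biological triplicates and writes shNC where the labels write siNC. The siNC sequence, the transfection reagent, its concentration, the solvent concentration and the harvest times were not stated in any source used. The siNC cells therefore differ from the DMSO cells in duplex RNA and in the deposited table they come from. They can differ in reagent, handling, solvent and time in culture as well, and all these cannot be told apart.

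A control siRNA is a short RNA duplex designed to have no intended target transcript. Its guide strand is loaded into Argonaute like any other and can lower transcripts whose 3′ untranslated region pairs with the guide's seed, while duplex RNA and lipid carriers can engage RNA sensors, endosomes and stress kinases. SK-N-SH is a neuroblastoma line known for holding both neuroblast-like (noradrenergic) and substrate-adherent (mesenchymal) cells. NF-kB is a family of transcription factors, held in the cytoplasm by inhibitor proteins until a signal releases it, whose targets include chemokines, cytokines, adhesion molecules and its own inhibitors.

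The libraries held 19748841 to 19875841 counts with siNC and 19644426 to 19976995 with DMSO, so depth hardly differed. Replicates of a group were not copies, since a chi-square per degree of freedom between pairs was 4.98 to 17.9 among siNC libraries and 4.69 to 11.3 among DMSO libraries, where counting error alone gives 1. The first principal component of the 6 libraries held 63.7% of the variance and set the groups apart. The second held 15.9%, and along it siNC replicate 2 and DMSO replicate 3 lay one way and siNC replicate 3 and DMSO replicate 1 the other. Median log2 change differed little with transcript length, lying between −0.05 and 0.05 in each of 5 length bins. SUV39H1 was at 18.7, 17 and 16.7 CPM (counts scaled to library size by TMM) with siNC and at 20.3, 19.6 and 24.6 CPM with DMSO. Its log2 change was −0.30 ± 0.10 (edgeR adjusted p = 0.0316), and that call was lost in 8 of 17 other settings, among them leaving out siNC replicate 2 (edgeR adjusted p = 0.0724), siNC replicate 3 (edgeR adjusted p = 0.105) or DMSO replicate 3 (edgeR adjusted p = 0.17).

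A large share of the transcriptome differed between the cultures. edgeR called 5293 genes, 35.2% of those tested, at an adjusted p under 0.05, of which 2552 (17%) were higher and 2741 (18.2%) lower with siNC. Most changes were small: 243 genes (1.61%) were called at least 2-fold higher and 515 (3.42%) at least 2-fold lower. The median log2 change over all tested genes was 0. Every list of genes below is read against those shares. The values of the 2 groups did not overlap for 6992 genes, 46.5% of those tested, and with 3 libraries a group an exact permutation test of a single gene cannot go below p = 0.1. Log2 changes are siNC minus DMSO, with n = 3 libraries each. Adjusted p-values are from edgeR's quasi-likelihood test over all tested genes unless another fit is named. The value after ± on a log2 change is an approximate standard error. It is the size of the change divided by the square root of that test's F statistic. It therefore rests on the fit of all 12 libraries and is not the spread of 3.

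**Figure D1:**
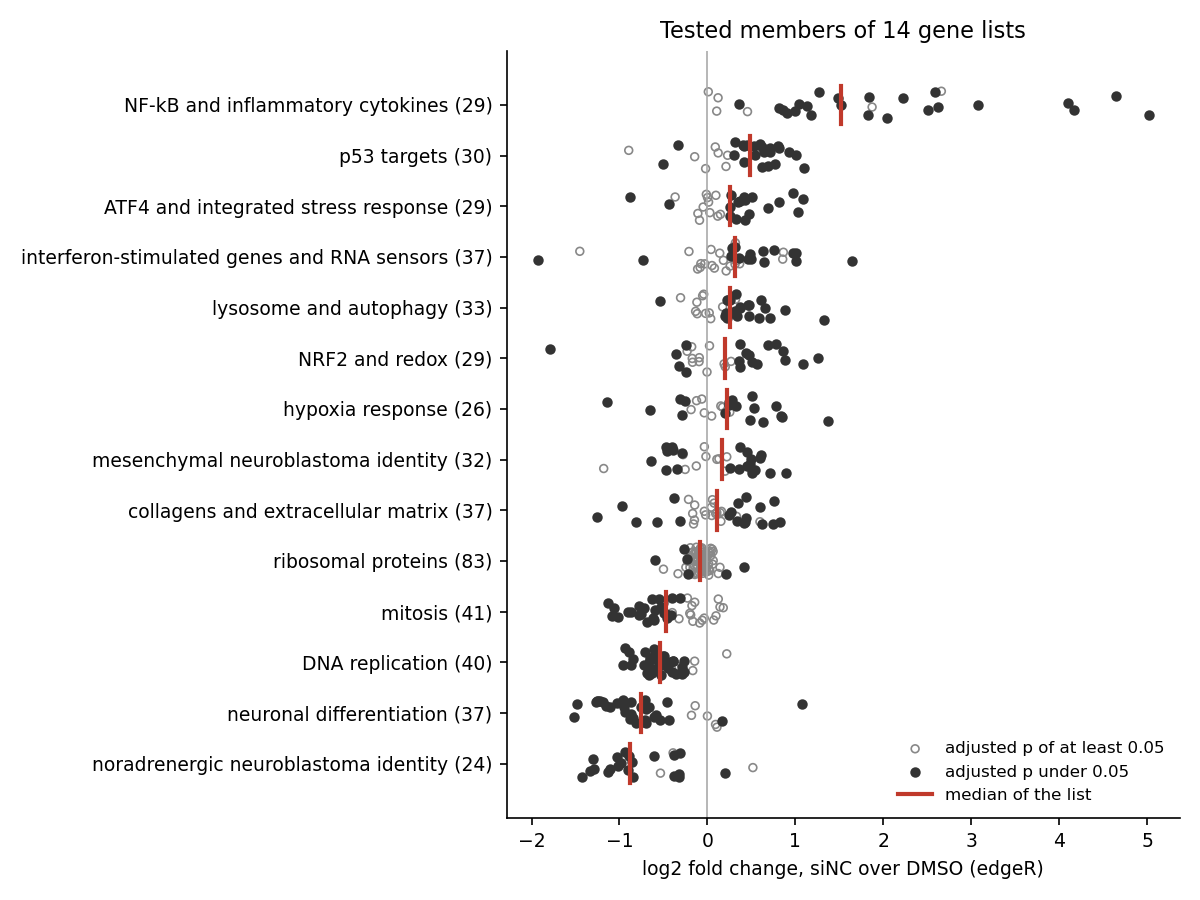
Log2 change, siNC over DMSO, of every tested member of 14 gene lists (1 point a gene, filled where called at an adjusted p under 0.05, open where not; bar, list median). The NF-kB list reaches a median of 1.52, the noradrenergic and neuronal lists lie at −0.88 and −0.75, and the replication and mitosis lists at −0.54 and −0.48; the uppermost NF-kB point, CCL20, had 0, 1 and 0 counts with DMSO, so its fitted change depends on the prior count.

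NF-kB targets had the highest median of the 37 gene lists. Of 29 tested members of the list of NF-kB pathway and inflammatory cytokine genes, 23 were higher with siNC, 0 lower and 6 not called, against 17% of all genes higher, and the median log2 change was 1.52. Without TNF and CXCL10, which had no count in any DMSO library, the median was 1.49. In 24 of the 29 the groups did not overlap. The list's summed level was 2443 to 2645 TPM (a level per transcript length) with siNC and 687 to 709 TPM with DMSO.

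Chemokines, the secreted proteins that draw leukocytes, made up the largest rises. CCL2, which attracts monocytes (Entrez gene 6347, chr17:34255285-34257203; coordinates are RefSeq, GRCh38.p14), was at 602, 624 and 567 CPM with siNC and at 99.9, 96.8 and 102 CPM with DMSO. The groups lay far apart and within-group spread was small, with a log2 change of 2.58 ± 0.09 (edgeR adjusted p = 4.08e-10). Per length it was among the most abundant transcripts to move, at 1572 ± 30.3 TPM with siNC and 252 ± 8.47 TPM with DMSO (mean ± SD, n = 3). CXCL8, the neutrophil attractant also called interleukin-8 (gene 3576, chr4:73740569-73743716), was at 44.3, 38.6 and 50.9 CPM with siNC and at 0.528, 4.67 and 2.58 CPM with DMSO. All siNC libraries were high, whereas the DMSO libraries differed from each other many-fold. The log2 change of CXCL8 was 4.10 ± 0.33 (edgeR adjusted p = 3.75e-07), and 4.82 without DMSO replicate 2. CXCL1 was at 10.6, 11.1 and 12.8 CPM with siNC and at 0.264, 1.1 and 0.527 CPM with DMSO, a log2 change of 4.17 ± 0.30, or 4.83 without DMSO replicate 2. CXCL2 was at 7.31, 8.32 and 8.51 CPM with siNC and at 0.317, 0.472 and 0.158 CPM with DMSO, a change of 4.64 ± 0.25. Both genes and CXCL3 are closely similar copies among which reads can be misassigned, so their separate values are uncertain. CCL20 had 17, 22 and 6 counts with siNC and 0, 1 and 0 counts with DMSO.

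Cytokines of other families moved the same way. IL6, an acute-phase cytokine, was at 2.8, 3.42 and 4.33 CPM with siNC and at 0.0528, 1.26 and 0.527 CPM with DMSO. No siNC library came down to the DMSO range, but DMSO replicate 2 was again the highest of its group, and the log2 change of 2.51 ± 0.41 (edgeR adjusted p = 0.000235) became 3.56 without it. LIF, a relative of IL6 that signals through the same receptor subunit, was at 36.3, 32.9 and 37.4 CPM with siNC and at 9.92, 11.1 and 8.86 CPM with DMSO (1.83 ± 0.10). IL32, a cytokine induced in inflamed tissue, was at 111, 126 and 102 CPM with siNC and at 24.8, 25.1 and 28.9 CPM with DMSO (2.10 ± 0.11). IL34, a ligand of the macrophage growth factor receptor, was named for the size of its rise (1.96 ± 0.14), and CSF1, the other ligand of that receptor, rose by 1.27 ± 0.08. The TNF gene itself had almost no counts in either group.

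Most components of the pathway were higher as well, with smaller changes. RELB, a DNA-binding NF-kB subunit, was at 81.3, 82.8 and 81.7 CPM with siNC and at 26.6, 27.8 and 31.2 CPM with DMSO (1.52 ± 0.08), and NFKB2 (1.14 ± 0.07) and NFKB1 (0.86 ± 0.07), which encode the precursors of other subunits, were higher too. RELA, the subunit of the rapid response, was at 209.8, 196 and 199 CPM with siNC and at 189.8, 183 and 189 CPM with DMSO, a change of 0.11 ± 0.07 that edgeR did not call (adjusted p = 0.238) and limma-trend on log2(TPM + 1) did (adjusted p = 0.0408). The inhibitors that NF-kB induces in feedback were higher. NFKBIA, which encodes the inhibitor IkB-alpha, averaged 125.8 CPM with siNC and 55.4 CPM with DMSO (1.18 ± 0.07), and the ubiquitin-editing enzyme TNFAIP3 averaged 3.11 CPM with siNC and 1.11 CPM with DMSO (1.49 ± 0.21). ZC3H12A encodes the RNase MCPIP1, which degrades inflammatory mRNAs and belongs to the axis named in the study's title. It was at 19.3, 17.3 and 17.2 CPM with siNC and at 4.38, 4.72 and 6.07 CPM with DMSO, so that every siNC library was well above every DMSO library (1.83 ± 0.14, edgeR adjusted p = 2.76e-07). Among effectors, the leukocyte adhesion molecule ICAM1 (gene 3383, chr19:10271120-10286615) was at 287, 291 and 302 CPM with siNC and at 65.1, 76.1 and 72.7 CPM with DMSO (2.04 ± 0.08), and the apoptosis inhibitor BIRC3 rose by 3.08 ± 0.42. REL, TNFAIP2, PTGS2 (0.46 ± 0.18, edgeR adjusted p = 0.0609), TNF and CXCL10 were not called.

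**Figure D2:**
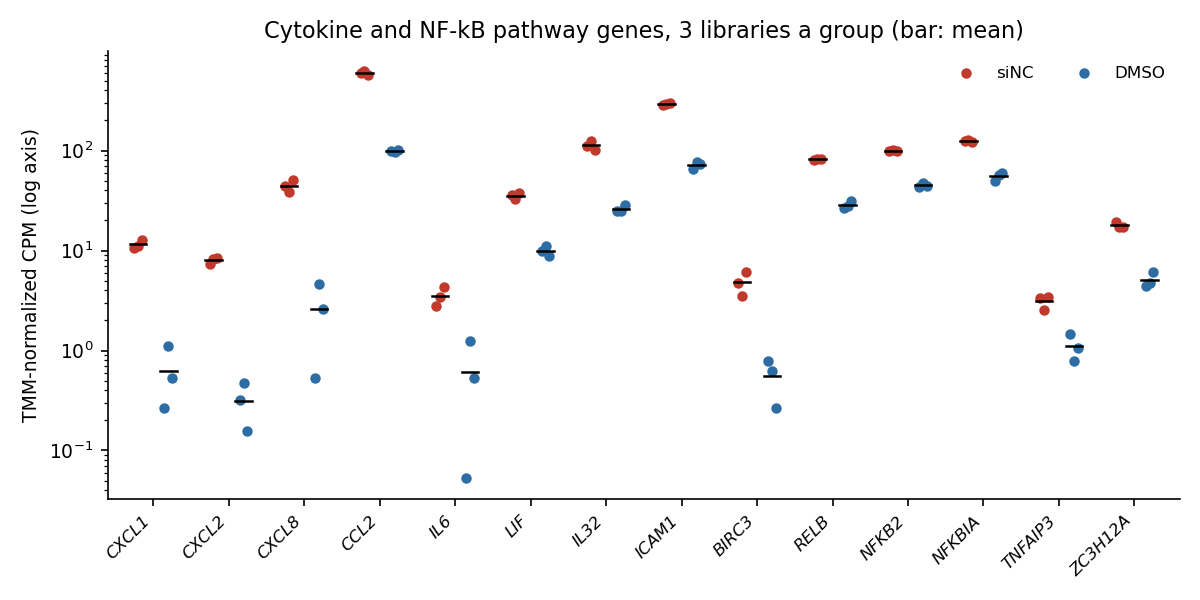
CPM per library (log axis) of 14 NF-kB pathway genes, siNC left of DMSO, 3 libraries each, with group means. In CXCL1, CXCL8 and IL6 the DMSO libraries spread widely and replicate 2 is the highest, while CCL2 (567 to 624 CPM with siNC, 96.8 to 102 with DMSO) and ICAM1 (287 to 302, against 65.1 to 76.1) have tight groups.

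Promoter windows from 250 bases before to 50 after the annotated start (RefSeq, GRCh38.p14) were searched on both strands for the NF-kB motif GGGANTTNC, where N is any base. A gene counted as a match if any of its windows held the motif. The number of windows differed between genes, and the shares were not adjusted for it. Of 12164 tested genes with a window, 6.44% held a match. The share was 16.6% of 181 genes called at least 2-fold higher and 6.42% of 374 called at least 2-fold lower, and 13 of 24 listed NF-kB genes with a window (54.2%) held one. Those genes are classical targets chosen as such, so their share is a description. They were not taken out of the genes called higher, so the share of 16.6% is not separate from theirs. The windows of CXCL1, CXCL2 and NFKBIA are shown because they hold matches in the chemokines that rose most and in the inhibitor, and that of CXCL8 because the chemokine with a change of 4.10 held no match. Letters in capitals mark the matches, which are 1 in CXCL1 and 2 each in CXCL2 and NFKBIA. All windows are written along the gene's own strand. CCL2, RELB and LIF had no window in the table.
CXCL1, chr4:73869143-73869442, plus strand: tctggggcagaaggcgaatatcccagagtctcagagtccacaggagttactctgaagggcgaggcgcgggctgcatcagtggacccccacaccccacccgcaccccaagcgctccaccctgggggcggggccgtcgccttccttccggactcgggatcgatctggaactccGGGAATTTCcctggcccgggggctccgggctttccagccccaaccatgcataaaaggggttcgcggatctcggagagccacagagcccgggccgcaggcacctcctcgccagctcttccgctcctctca
CXCL2, chr4:74099146-74099445, minus strand: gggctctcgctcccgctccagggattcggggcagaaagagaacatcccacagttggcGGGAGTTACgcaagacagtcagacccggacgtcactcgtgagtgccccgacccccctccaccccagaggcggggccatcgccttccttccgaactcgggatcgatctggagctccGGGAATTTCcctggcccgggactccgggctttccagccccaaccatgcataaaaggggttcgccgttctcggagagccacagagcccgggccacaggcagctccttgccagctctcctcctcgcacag
NFKBIA, chr14:35404700-35404999, minus strand: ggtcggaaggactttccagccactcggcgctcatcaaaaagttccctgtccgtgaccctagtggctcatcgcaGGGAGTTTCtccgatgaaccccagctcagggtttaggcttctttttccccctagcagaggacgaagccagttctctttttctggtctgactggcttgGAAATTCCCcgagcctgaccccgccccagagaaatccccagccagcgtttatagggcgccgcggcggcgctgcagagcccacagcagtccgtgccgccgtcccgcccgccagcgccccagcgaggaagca
CXCL8, chr4:73740319-73740618, plus strand: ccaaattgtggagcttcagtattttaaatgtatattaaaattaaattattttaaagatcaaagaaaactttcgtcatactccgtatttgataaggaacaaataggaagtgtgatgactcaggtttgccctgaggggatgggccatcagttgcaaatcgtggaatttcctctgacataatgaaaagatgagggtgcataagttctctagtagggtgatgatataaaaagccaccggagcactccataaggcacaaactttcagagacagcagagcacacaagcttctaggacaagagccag
A match is only a run of letters, and the lack of one in CXCL8 says no more than that these letters are absent from that window. The CXCL8 window holds tggaatttc, which departs from the motif in its first letter alone, and near matches were not counted. The window of ICAM1 also held 0 matches.

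The list of interferon-stimulated genes, which respond to sensors of foreign RNA, also holds such sensors and moved less and less evenly. Of 37 tested, 14 were higher, 2 lower and 21 not called, with a median of 0.31. The number higher fell to 9 with limma-voom, 9 without siNC replicate 1, 8 without DMSO replicate 1 and 9 without DMSO replicate 2, and the number lower to 0 without siNC replicate 3 or DMSO replicate 3 and to 1 without siNC replicate 2 or DMSO replicate 2. IRF1, a transcription factor induced by interferon and NF-kB alike, was at 49.4, 46.6 and 47.3 CPM with siNC and at 22.1, 22.6 and 26.7 CPM with DMSO (1.00 ± 0.08, edgeR adjusted p = 4.64e-07). IFIT3, an antiviral RNA-binding partner protein, was at 14.4, 12.9 and 15.9 CPM with siNC and at 6.12, 8.5 and 7.49 CPM with DMSO (0.97 ± 0.14). PARP9 (0.46 ± 0.09) was modestly higher. The RNA sensors DDX58, TLR3 and TLR7 were called higher as well, and each call was lost in several other settings. Among these was leaving out siNC replicate 3 for DDX58 (edgeR adjusted p = 0.16) and TLR3 (edgeR adjusted p = 0.105). For TLR7 it was leaving out siNC replicate 1 (edgeR adjusted p = 0.0791). The pair that fell had few counts. IFI27 averaged 0.0692 CPM with siNC and 0.281 CPM with DMSO (−1.93 ± 0.56, edgeR adjusted p = 0.0178), a call lost without siNC replicate 1 (edgeR adjusted p = 0.0638), siNC replicate 3 (edgeR adjusted p = 0.0687) or DMSO replicate 3 (edgeR adjusted p = 0.142). BST2, which tethers budding virus, averaged 0.619 CPM with siNC and 1.03 CPM with DMSO (−0.74 ± 0.24, edgeR adjusted p = 0.0408), a call lost in 9 of 17 other settings, among them without siNC replicate 2 (edgeR adjusted p = 0.118) or 3 (edgeR adjusted p = 0.0962) or DMSO replicate 2 (edgeR adjusted p = 0.127) or 3 (edgeR adjusted p = 0.134). Several textbook interferon targets were not called. ISG15, a ubiquitin-like protein, was at 16.9, 19.5 and 13.1 CPM with siNC and at 10.7, 13.4 and 15.6 CPM with DMSO, overlapping groups with an edgeR adjusted p of 0.104. That gene passed without siNC replicate 3 (edgeR adjusted p = 0.0186) or DMSO replicate 3 (edgeR adjusted p = 0.0471), and with limma-trend on log2(TPM + 1) (adjusted p = 0.0254) or log2(TPM + 0.1) (adjusted p = 0.025). MX1 changed by −0.11 ± 0.16 and OAS1 by 0.04 ± 0.24, with overlapping groups in both. IFNB1, the interferon gene induced first by RNA sensing, had 0 counts in all 6 libraries.

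Targets of p53, the transcription factor of the DNA damage and stress response, were mostly higher. Of 30 tested, 21 rose, 2 fell and 7 were not called, with a median of 0.49. CDKN1A, the cyclin-dependent kinase inhibitor p21, was at 1885, 1966 and 1785 CPM with siNC and at 1147, 1290 and 1292 CPM with DMSO (0.60 ± 0.08, edgeR adjusted p = 4.14e-05). GDF15, a secreted stress cytokine, was at 31.3, 32.6 and 28.2 CPM with siNC and at 13.1, 14.7 and 15.3 CPM with DMSO (1.09 ± 0.11). The siNC libraries were above the DMSO libraries throughout for both genes. The death receptor TNFRSF10B (0.77 ± 0.06), cyclin G1 (CCNG1, 0.82 ± 0.07), the tetraspanin CD82 (0.92 ± 0.09) and DRAM1 (1.95 ± 0.10), a lysosomal membrane protein that promotes autophagy, were higher. Of 33 apoptosis regulators 12 were higher and 4 lower (median 0.19). The survival protein MCL1 (0.83 ± 0.07) and the pro-death protein PMAIP1 (0.80 ± 0.09) both rose, and BIRC5, a survival protein made at mitosis, fell (−1.07 ± 0.08).

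Lysosome and stress genes rose moderately. Of 33 lysosome and autophagy genes 21 were higher and 1 lower (2 without siNC replicate 2), with a median of 0.26. GPNMB, a glycoprotein of lysosome-related organelles, was at 536, 589 and 549 CPM with siNC and at 209.6, 232 and 225 CPM with DMSO (1.33 ± 0.07, edgeR adjusted p = 1.1e-08). SQSTM1, the autophagy receptor p62, was at 1243, 1317 and 1176 CPM with siNC and at 619.9, 686 and 715 CPM with DMSO (0.89 ± 0.09). The lysosomal protease TPP1 (0.72 ± 0.08) followed, whereas ULK1, the kinase that starts autophagy, fell by 0.54 ± 0.07 on the log2 scale, and TFEB, the main transcription factor of lysosomal genes, was not called (−0.31 ± 0.12, edgeR adjusted p = 0.0632; 0.0363 without siNC replicate 2). Of 29 genes of the ATF4 and integrated stress response 16 were higher and 2 lower (median 0.26). DDIT3, the stress transcription factor CHOP, was at 29.9, 34.4 and 28.5 CPM with siNC and at 14.2, 16 and 17.1 CPM with DMSO (0.97 ± 0.11). CEBPB, its dimerization partner, rose by 1.03 ± 0.12, CHAC1, which degrades glutathione, by 0.81 ± 0.10 and the cystine transporter SLC7A11 by 1.09 ± 0.23. ATF4 mRNA itself was level (0.01 ± 0.06, edgeR adjusted p = 0.889), and the serine synthesis enzyme PHGDH (−0.44 ± 0.09) and CBS (−0.88 ± 0.14), which joins serine to homocysteine, fell.

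Of 23 endoplasmic reticulum chaperones 9 were higher and 2 lower (median 0.18), the number lower being 1 without any library other than siNC replicate 2. DNAJB9 (1.10 ± 0.11), a co-chaperone of the major chaperone HSPA5 (0.48 ± 0.06), rose most. In the NRF2 and redox list 13 of 29 were higher and 5 lower (8 without siNC replicate 2), with the thioredoxin reductase TXNRD1 (0.78 ± 0.09), the mitochondrial superoxide dismutase SOD2 (0.88 ± 0.11), OSGIN1 (1.26 ± 0.14) and the heme oxygenase HMOX1 (0.86 ± 0.11) higher. AKR1C1, a reductase and a classical NRF2 target, went the other way, at 1.66, 0.632 and 1.26 CPM with siNC and 4.06, 3.93 and 4.38 CPM with DMSO (−1.79 ± 0.22). The cytosolic heat shock list hardly moved, with 2 of 23 higher and 1 lower (0 or 1 higher when 1 library other than siNC replicate 2 was left out). Of 10 metallothioneins and zinc genes only MT2A was called (0.83 ± 0.10); without siNC replicate 2, siNC replicate 3 or DMSO replicate 3 there were 3, 2 and 2 calls. The iron-storage subunits were among the transcripts with the largest gain in TPM: FTL was at 7899 ± 365 TPM with siNC and 5601 ± 464 TPM with DMSO (mean ± SD, n = 3).

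Genes of noradrenergic neuroblastoma identity fell. Of 24 tested, 20 were lower, 1 higher and 3 not called, against 18.2% of all genes lower, and the median was −0.88. The single call upward became 2 without DMSO replicate 1 and 0 without siNC replicate 1, siNC replicate 2, DMSO replicate 2 or DMSO replicate 3. PHOX2A, a homeodomain factor of sympathetic neurons (gene 401, chr11:72239077-72244176), was at 91.2, 103 and 91.6 CPM with siNC and at 256, 213 and 233 CPM with DMSO (−1.30 ± 0.09, edgeR adjusted p = 1.11e-07). HAND2, another core factor of the lineage, was at 229.7, 246 and 222 CPM with siNC and at 459, 418 and 459 CPM with DMSO (−0.94 ± 0.08). In both the siNC libraries lay at roughly the same lowered level and did not overlap the DMSO libraries. TBX2 (−1.28 ± 0.07), GATA3 (−0.86 ± 0.09) and GATA2 (−1.13), further transcription factors of the noradrenergic circuit, were lower, as was DBH, which makes noradrenaline from dopamine (76.2, 81.1 and 76.2 CPM with siNC, 188, 161 and 153 CPM with DMSO; −1.10 ± 0.08). The receptor kinase gene ALK fell by 1.42 and MYCN, with 18, 27 and 15 counts in the siNC libraries and 73, 62 and 48 in the DMSO libraries, by 1.63 ± 0.28 on the log2 scale (edgeR adjusted p = 0.000375). TH, the rate-limiting enzyme of catecholamine synthesis and a defining marker of the type, had 0 counts in all 6 libraries. In these bulk libraries fewer noradrenergic cells and less of these RNAs per cell cannot be told apart.

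Neuronal differentiation genes fell with them: 30 of 37 were lower, 2 higher and 5 not called (median −0.75), with 1 higher without siNC replicate 1 or 3 or DMSO replicate 1 or 3. TUBB3, the neuronal beta-tubulin (gene 10381, chr16:89921925-89936097), was at 405, 406 and 381 CPM with siNC and at 729, 717 and 737 CPM with DMSO (−0.87 ± 0.07, edgeR adjusted p = 3.77e-07). The axonal kinesin KIF1A was at 35.7, 30.5 and 29.6 CPM with siNC and at 111, 89.5 and 74 CPM with DMSO (−1.52 ± 0.13). DMSO replicate 1 was the highest of its group for KIF1A, and the lowest DMSO library was still above every siNC library. CRMP1 (−1.22 ± 0.10), which relays growth cone signals, the reticulon RTN1 (−1.16 ± 0.10), the microtubule regulators STMN4 (−1.48 ± 0.14) and MAPT (−1.11 ± 0.12), the synaptic vesicle protein SYN1 (−1.27 ± 0.12) and the adhesion molecule L1CAM (−1.25 ± 0.11) were lower. SCG5, a secretory granule protein, was higher (1.08 ± 0.12).

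The mesenchymal list did not move as one. Of 32 tested, 14 were higher and 8 lower, with a median of 0.17, and its summed level was 20160 to 20330 TPM with siNC and 24250 to 25260 TPM with DMSO. The transcription factors RUNX2 (0.90 ± 0.14) and FOSL1 (0.60 ± 0.08), the receptors TGFBR2 (0.61 ± 0.07) and AXL (0.45 ± 0.07) and CREG1 (0.71 ± 0.07), a lysosomal glycoprotein, were higher. VIM, the intermediate filament that dominates the list's sum, was at 6956, 7411 and 6611 CPM with siNC and at 9279, 9626 and 10160 CPM with DMSO (−0.47 ± 0.10). The matrix protein TGFBI (−0.46 ± 0.08), the repressor SNAI1 (−0.64 ± 0.13) and the surface protein THY1 (−0.39 ± 0.09) were lower too. FN1, the fibronectin gene, was not called by edgeR (−0.28, adjusted p = 0.0574), but was without DMSO replicate 3 (edgeR adjusted p = 0.00452) and by DESeq2 (adjusted p = 0.0204).

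**Figure D3:**
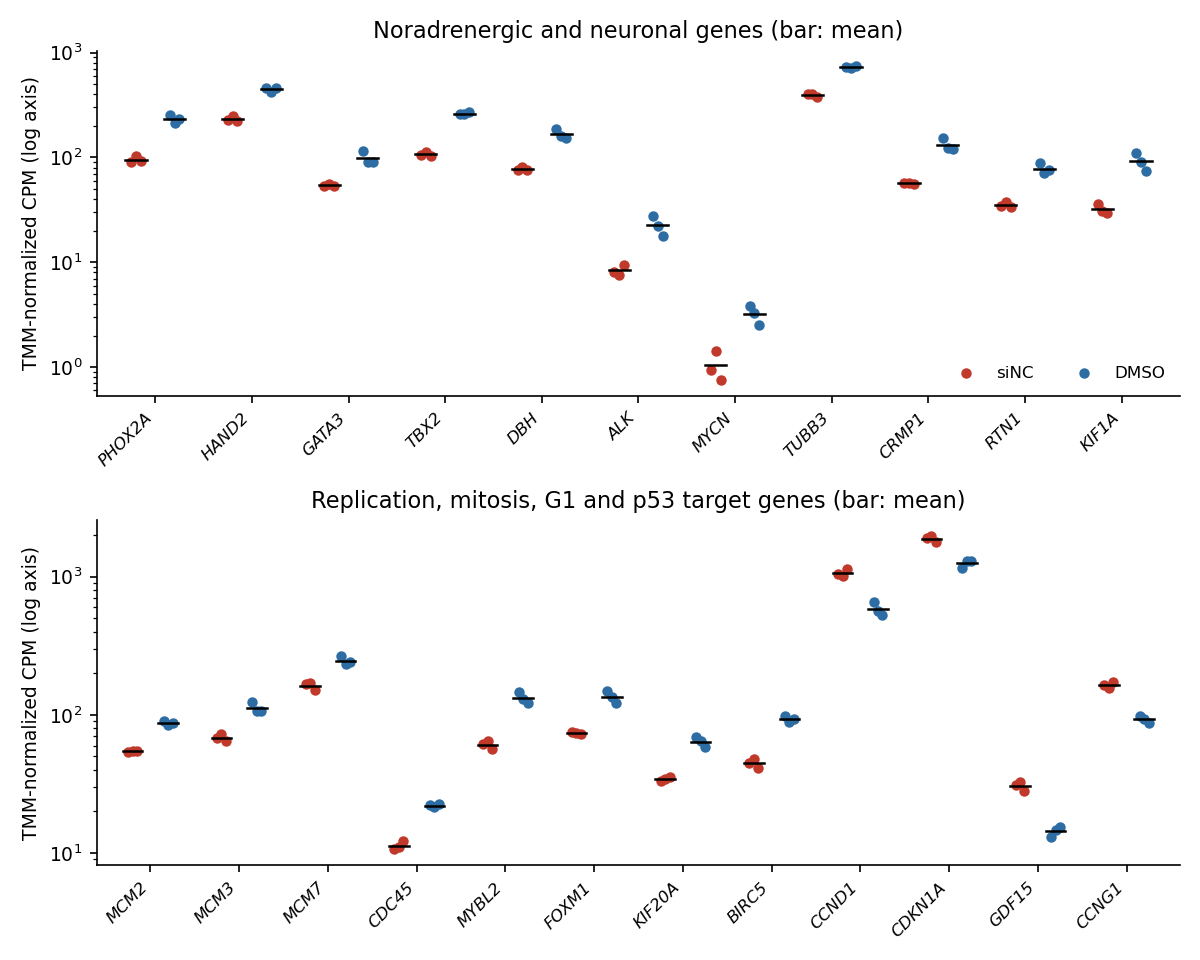
CPM per library (log axis) of 11 noradrenergic and neuronal genes (top) and 12 cell-cycle and p53 genes (bottom), siNC left of DMSO, 3 libraries each, with group means. In the top row every siNC library is below every DMSO library, as for PHOX2A (91.2 to 103 CPM with siNC, 213 to 256 with DMSO); in the bottom row the replication and mitosis genes are lower and CCND1, CDKN1A, GDF15 and CCNG1 higher with siNC.

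Genes for DNA replication were lower almost without exception: 35 of 40 fell, 0 rose and 5 were not called (median −0.54). MCM2, a subunit of the replicative helicase, was at 53.9, 54.9 and 54.6 CPM with siNC and at 90.0, 84.2 and 86.8 CPM with DMSO (−0.68 ± 0.07, edgeR adjusted p = 2.41e-06). Other helicase parts, MCM3 (−0.72 ± 0.08), MCM7 (−0.60 ± 0.07) and CDC45 (−0.96 ± 0.11), moved likewise. Of 41 mitosis genes 24 fell and 0 rose (median −0.48). MYBL2, a transcription factor that switches on late cell-cycle genes, was at 62, 64.2 and 56.2 CPM with siNC and at 146, 130.4 and 122 CPM with DMSO (−1.13 ± 0.09). Its partner FOXM1 (−0.86 ± 0.08), the cytokinesis kinesin KIF20A (−0.90 ± 0.08), cyclin B1 (CCNB1, −0.59 ± 0.07) and the kinase PLK1 (−0.62 ± 0.09) were lower. AURKA, the mitotic kinase of the study's title, was at 28.9, 30.8 and 29.5 CPM with siNC and at 35.9, 33.4 and 33.2 CPM with DMSO, which did not overlap, and was not called (−0.20 ± 0.10, edgeR adjusted p = 0.119). Of 18 G1 cyclins, kinases and inhibitors 6 were higher and 3 lower. Cyclin D1 (CCND1), which drives entry into the cycle, was at 1047, 1012 and 1140 CPM with siNC and at 655, 564 and 529 CPM with DMSO (0.87 ± 0.08), and the inhibitor CDKN2B (0.87 ± 0.13) rose beside it. MYC changed by −0.39 ± 0.10 (edgeR adjusted p = 0.00987), a call lost without DMSO replicate 1 (edgeR adjusted p = 0.0602) and with limma-trend on log2(TPM + 1) (adjusted p = 0.077).

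The same windows were searched for the E2F motif TTTNNCGC, since E2F factors time the transcription of replication genes. A match was found in 12.3% of all 12164 genes. The share was 9.89% of 374 genes called at least 2-fold lower and 8.84% of 181 called at least 2-fold higher, both below that of all genes. Matches were in 22 of 34 replication genes (64.7%) and in 2 of 34 mitosis genes (5.88%). The motif was thus frequent in a falling list and rare in another. The replication genes were chosen as such, so their share is a description. MCM2 and MCM6 are shown as helicase subunits with paired matches on opposite strands that overlap, marked in capitals (RefSeq, GRCh38.p14, along the gene's strand). They were picked for holding matches. CDC45, which had the largest fall of the replication list, held no match in any of its 3 windows. MCM7 and PCNA held matches in some of their windows but not in all. MCM6 fell less than MCM2 (−0.43, edgeR adjusted p = 0.00695) and was not called with limma-trend on log2(TPM + 1) (adjusted p = 0.0647).
MCM2, chr3:127598161-127598460, plus strand: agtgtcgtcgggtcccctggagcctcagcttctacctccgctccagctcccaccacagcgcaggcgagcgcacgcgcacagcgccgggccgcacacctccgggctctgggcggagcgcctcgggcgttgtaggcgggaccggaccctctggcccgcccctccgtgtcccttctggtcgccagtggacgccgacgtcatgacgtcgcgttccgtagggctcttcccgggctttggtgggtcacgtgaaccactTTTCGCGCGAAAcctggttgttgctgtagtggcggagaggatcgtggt
MCM6, chr2:135876394-135876693, minus strand: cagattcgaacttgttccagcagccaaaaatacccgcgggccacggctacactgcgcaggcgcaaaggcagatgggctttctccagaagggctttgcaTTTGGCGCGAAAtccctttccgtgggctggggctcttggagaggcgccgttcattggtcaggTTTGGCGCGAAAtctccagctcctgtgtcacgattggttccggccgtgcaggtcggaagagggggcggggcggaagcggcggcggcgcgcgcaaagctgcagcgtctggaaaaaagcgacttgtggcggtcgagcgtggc

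Matrix and growth factor genes changed in both directions. Of 37 collagens and extracellular matrix genes 13 were higher and 6 lower (median 0.11). The basement membrane chains COL4A1 (0.75 ± 0.07) and LAMC1 (0.62 ± 0.08) and the proteoglycan LUM (0.83 ± 0.08) rose, while TNC (−0.58 ± 0.09), a matrix protein of growing and wounded tissue, the proteoglycan BGN (−1.26 ± 0.22) and the collagen chains COL6A3 (−0.82 ± 0.12) and COL1A2 (−0.97 ± 0.21) fell. COL1A1, by far the most abundant of these, was at 11320, 11700 and 11520 CPM with siNC and at 8821, 9413 and 8815 CPM with DMSO (0.35 ± 0.10, edgeR adjusted p = 0.0137). In the TGF-beta and BMP list (8 of 27 higher, 6 lower, median 0.07) the ligands TGFB2 (1.34 ± 0.12) and INHBA (1.43 ± 0.21) rose together with the antagonists FST (0.96 ± 0.08), which binds activins, and GREM1 (0.61 ± 0.07), which binds BMPs. ID1 (−0.55 ± 0.09) and ID4 (−0.85 ± 0.13), inhibitors of differentiation that BMPs induce, fell. In the YAP/TEAD and SRF list (9 of 32 higher, 10 lower, median −0.03) ANKRD1 was at 50.7, 54.9 and 48.4 CPM with siNC and at 19.6, 16.1 and 16.6 CPM with DMSO (1.56 ± 0.10), CCN2 rose by 0.77 ± 0.07 and the tropomyosin TPM4 fell by 1.41 ± 0.07 on the log2 scale. Immediate early genes also split (10 of 31 higher, 7 lower, or 4 without siNC replicate 3). KLF4 (1.45 ± 0.17), IER3 (1.14 ± 0.11), the phosphatase DUSP4 (0.77 ± 0.07) and JUNB (0.72 ± 0.10) rose, and EGR1 (−1.18 ± 0.11) and FOS (−0.59 ± 0.14) fell.

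Metabolic lists showed smaller shifts. In the hypoxia list 13 of 26 were higher and 5 lower (2 without siNC replicate 3, 3 without DMSO replicate 1 or 3). The glucose transporter SLC2A3 was at 52.4, 51.1 and 54 CPM with siNC and at 21, 19.2 and 20.5 CPM with DMSO (1.37 ± 0.08), hexokinase HK2 rose by 0.85 ± 0.09 and the angiogenic factor VEGFA by 0.53 ± 0.07, and the carbonic anhydrase CA9 fell by 1.14 ± 0.20. Of 24 glycolysis genes 4 were higher (2 without siNC replicate 2, DMSO replicate 1 or DMSO replicate 2) and 9 lower (5 without siNC replicate 3), with the phosphofructokinase PFKL (−0.85 ± 0.06) among the lower ones and GAPDH at 9905 TPM with siNC and 12000 TPM with DMSO. Of 31 cholesterol genes 10 were higher and 8 lower, the second number being 1 to 5 when any library other than siNC replicate 2 was left out. The lysosomal cholesterol exporters NPC1 (0.66 ± 0.07) and NPC2 (0.69 ± 0.09) were among the higher ones. The fatty acid list split evenly, 6 of 29 each way (20.7%), which is near the shares of all tested genes. There were 1 higher without DMSO replicate 2 and 3 higher without DMSO replicate 3. Without siNC replicate 1 or 3 or DMSO replicate 1 or 2, 2 or 3 were lower.

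Several counts in the remaining lists lay near the shares of all tested genes, 17% higher and 18.2% lower, and do not set those lists apart. These were endocytosis (21.9% higher, 18.8% lower), respiratory chain subunits called lower (19.4%), MYC targets called higher (18.2%) and histones called lower (15.2%). Ribosomal protein genes, which share reads with pseudogenes and are uncertain one by one, were mostly not called (2 of 83 higher, 1 without DMSO replicate 2 or 3; 4 lower), but 18 were lower without siNC replicate 2 and 1 or 2 without any other library. The number lower was also 7 with library totals, DESeq2 or limma-voom, 10 with either limma-trend setting on TPM and 2 with RLE scaling. Of 36 respiratory chain subunits 2 were higher (1 without DMSO replicate 1 or 2) and 7 lower, or 13 lower without siNC replicate 2. Of 33 MYC targets and ribosome biogenesis genes 6 were higher and 10 lower. Endocytosis and membrane traffic genes (7 of 32 higher, 4 without DMSO replicate 3; 6 lower) had the caveolin CAV2 (0.89 ± 0.08) higher and the endosomal syntaxin STX12 (−1.01 ± 0.07) lower. Of 24 genes of the RNA interference pathway 6 were higher (3 without siNC replicate 3) and 3 lower. The Argonaute partner TNRC6A was higher (0.81 ± 0.14) and the primary microRNA nuclease DROSHA lower (−0.40 ± 0.07). DICER1, which dices small RNA precursors, was higher (0.73 ± 0.21, edgeR adjusted p = 0.0117), a call lost without siNC replicate 3 (edgeR adjusted p = 0.0717). Of 23 H3K9 methylation genes 1 was higher (2 without siNC replicate 2 or DMSO replicate 1) and 7 lower, among them EHMT2 (−0.37 ± 0.07), which encodes the methyltransferase G9a, and the demethylase KDM1A (−0.40 ± 0.07), and SUV39H2 was not called (−0.34 ± 0.16, edgeR adjusted p = 0.119). Of 15 retinoic acid genes 8 were lower, including the receptor RARG (−0.50 ± 0.06), and 3 higher (1 without siNC replicate 1, siNC replicate 3 or DMSO replicate 2), including the retinol dehydrogenase RDH10 (0.97 ± 0.08). Of 33 replication-dependent histone genes with enough counts 5 were lower (3 without DMSO replicate 3) and 0 higher (1 without DMSO replicate 1). Histone copies are near-identical, so these are uncertain.

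Among markers of other cell types several defining genes were absent. CD3E and HLA-DRA of blood cells, KRT14 of epithelia and CDH19 of Schwann cells had 0 counts in all 6 libraries, and SOX10 had 1 count. The summed level of endothelial markers was 4.55 to 6.12 TPM with siNC and 5.03 to 5.7 TPM with DMSO, that of Schwann and glial markers 62.5 to 68.1 TPM with siNC and 66 to 71.2 TPM with DMSO, and that of blood cell markers, nearly all of it CD68, 123 to 130.0 TPM with siNC and 169.5 to 179 TPM with DMSO. Of 7 endothelial markers 2 were higher (1 without siNC replicate 3 or DMSO replicate 1) and 2 lower (0 without siNC replicate 2, 1 without any other library). Of 8 Schwann and glial markers 2 were higher and 2 lower (1 without any library but DMSO replicate 1). Of 9 blood cell markers 0 were higher and 1 lower, CD68 (−0.53 ± 0.07). Skeletal muscle markers summed to 21.2 to 27.8 TPM with siNC and 9.55 to 13.7 TPM with DMSO, of which 1 gene of 4 tested, TNNT2, was called (1.25 ± 0.18). Among 10 epithelial markers 2 were higher (1 without siNC replicate 2 or DMSO replicate 1 or 2) and 1 lower. ELF3, an epithelial transcription factor, was at 5.29, 5.95 and 6.2 CPM with siNC and at 0.317, 0.577 and 0.58 CPM with DMSO (3.55 ± 0.23), while the keratins KRT8 and KRT18 did not change beyond the threshold.

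The largest rises and falls at 5 CPM or more were named by rank. Besides the chemokines, IL32 and ICAM1, the rises included the tight junction protein CLDN1 (17.6, 16.8 and 20.4 CPM with siNC, 3.38, 3.62 and 2.95 CPM with DMSO; 2.46 ± 0.13), the BMP-binding protein BMPER (2.27 ± 0.23), the neuronal pentraxin NPTX1 (22.6, 22.2 and 23.6 CPM with siNC, 5.65, 6.92 and 4.54 CPM with DMSO), the amino acid oxidase IL4I1 (1.85 ± 0.10) and the lysosomal protease CTSS (1.80 ± 0.13). The largest fall was in HGF, hepatocyte growth factor, the ligand of the receptor MET (gene 3082, chr7:81699010-81770047). It was at 1.97, 1.74 and 2.07 CPM with siNC and at 14.3, 15.5 and 13 CPM with DMSO (−2.89 ± 0.15, edgeR adjusted p = 1.1e-08). Next came HR (−1.71 ± 0.19), a nuclear corepressor, CADM3 (−1.71 ± 0.15), a neural adhesion molecule, and CDK14 (−1.70 ± 0.10), a cyclin-dependent kinase. OGFR, the opioid growth factor receptor (gene 11054, chr20:62804835-62814000), was at 23, 25.6 and 23.6 CPM with siNC and at 68.3, 76.6 and 87 CPM with DMSO (−1.68 ± 0.10). The complement component C7 fell by 1.68 ± 0.10. GANAB, the alpha subunit of glucosidase II, which trims the sugars of new glycoproteins (gene 23193, chr11:62624829-62646613), was at 284, 288 and 281 CPM with siNC and at 891, 906 and 901 CPM with DMSO (−1.66 ± 0.07, edgeR adjusted p = 1.38e-09). Within-group spread was narrow for GANAB at a level where counting error is small. ZNF423, KIF26A, SORCS1, ATP2B3, B3GAT1, SDK1, AIF1L and CHD5 followed, with changes of −1.59 to −1.56.

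The libraries transfected with the siRNA against SUV39H1 (siSUV39H1, 3 libraries) give a second transfected group for the same genes. edgeR called 7251 genes (48.2%) in siSUV39H1 against DMSO and 5109 (33.9%) in siSUV39H1 against siNC. The first shares the DMSO libraries with the main comparison and the second shares the siNC libraries, so the values are set side by side and are not independent. The shares of 48.2% and 33.9% count both directions together, and no split by direction over all genes is given for these comparisons. The list counts are to be read against those shares. In siSUV39H1 against DMSO, 23 of 29 NF-kB genes were higher and 2 lower (median 1.71). There, 18 of 24 noradrenergic genes were lower and 1 higher (median −0.59), and 24 of 37 neuronal genes lower and 5 higher (median −0.46). In the same comparison 37 of 40 replication genes (median −0.74) and 36 of 41 mitosis genes (median −1.02) were lower, with 0 higher in either list. In siSUV39H1 against siNC, 5 NF-kB genes were higher, 7 lower and 17 not called (median 0.09). Of the noradrenergic genes 9 were higher, 1 lower and 14 not called (median 0.26). Of the neuronal genes 13 were higher, 4 lower and 20 not called (median 0.28). Of the mitosis genes 27 were lower and 0 higher (median −0.50). Ribosomal proteins, of which 4 fell with siNC, had 68 of 83 lower in siSUV39H1 against DMSO and 53 lower in siSUV39H1 against siNC.

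Single genes fell into different patterns, and those in the following sentences were picked after their values were seen. PHOX2A averaged 95.1 CPM with siNC, 99.5 CPM with siSUV39H1 and 234 CPM with DMSO, and siSUV39H1 minus siNC was 0.06. C7 (0.13), ANKRD1 (−0.01) and GPNMB (−0.10) likewise differed little between the transfected groups. HGF (0.69) and KIF26A (0.38) were somewhat above their siNC level with siSUV39H1 and still far below DMSO. Another set was low in siNC and at or nearer the DMSO level with siSUV39H1. OGFR averaged 24.1 CPM with siNC, 73.4 CPM with siSUV39H1 and 77.3 CPM with DMSO, and siSUV39H1 minus siNC was 1.61 (edgeR adjusted p = 8.7e-09). NOLC1, a nucleolar phosphoprotein, averaged 51.1 CPM with siNC, 120.3 CPM with siSUV39H1 and 117.6 CPM with DMSO (siSUV39H1 minus siNC, 1.23). EGR1 averaged 8.65 CPM with siNC, 19.6 CPM with both siSUV39H1 and DMSO. CDK14 (30.4 CPM with siSUV39H1) and GANAB (603 CPM) lay between the siNC and DMSO levels, and STX12 (66.6 CPM) was above the DMSO level. NPTX1 was higher with siNC than in both other groups, at 22.8 CPM with siNC, 2.51 CPM with siSUV39H1 and 5.7 CPM with DMSO. ZC3H12A went further in the same direction, averaging 18 CPM with siNC, 36.1 CPM with siSUV39H1 and 5.05 CPM with DMSO (siSUV39H1 minus siNC, 1.01).

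**Figure D4:**
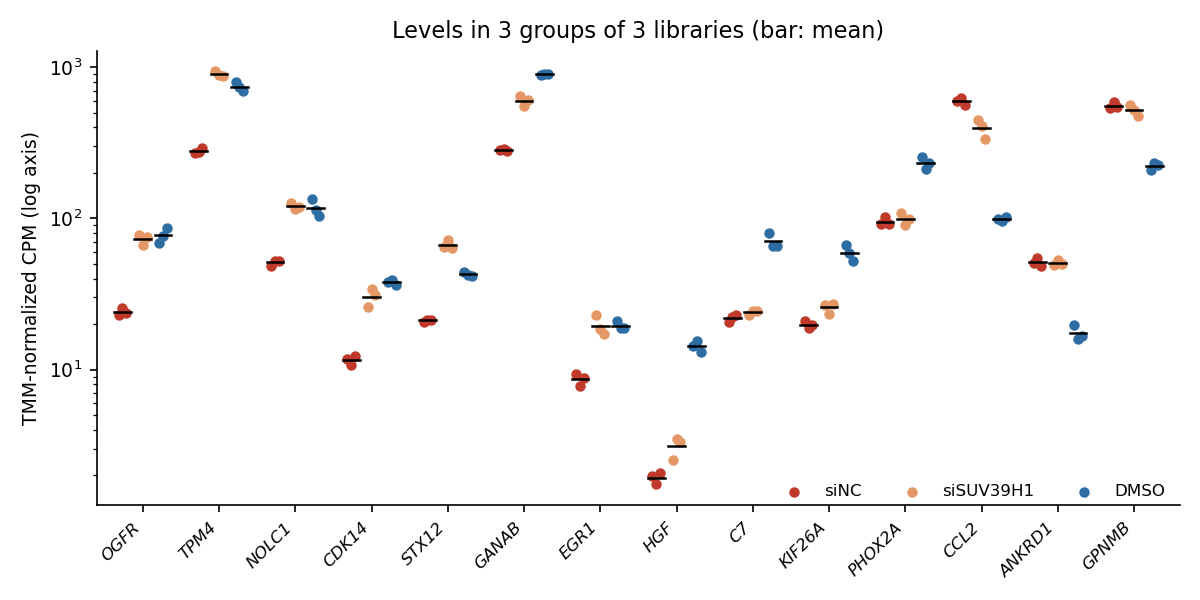
CPM per library (log axis) with siNC, siSUV39H1 and DMSO, 3 libraries each, for 14 genes chosen after their values were seen. For OGFR, TPM4, NOLC1, CDK14, STX12, GANAB and EGR1 the siNC libraries stand below both other groups; for HGF, C7, KIF26A, PHOX2A, CCL2, ANKRD1 and GPNMB both transfected groups lie on the same side of DMSO.

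Because a guide strand pairs through its seed, the 3′ untranslated regions (UTRs) of 14545 tested genes were searched for 7-base words. The 14415 words found in at least 200 UTRs were ranked by the mean log2 change, siNC minus DMSO, of the genes holding them, adjusted for UTR length and GC content. The lowest was TCGGAGA, held by 280 genes with a mean of −0.18 and a median of −0.20, of which 39.6% were lower and 11.8% higher. The second was CGGAGAA (329 genes, mean −0.18, 33.1% lower), which overlaps the first by all but 1 base and together with it spells TCGGAGAA. Next in the ranking were AAGCTCG (219 genes, mean −0.14) and CGCGGGG (272 genes, mean −0.13, 40.8% lower), which share no such overlap with them. The ranking used the same changes it describes, so the word's position is no test and the following values support nothing further. The siNC sequence is not given in the sources used here, and whether its guide pairs with these words was not tested.

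Genes with the 8-base word TCGGAGAA (79) had a median change of −0.36, with 46.8% lower and 8.86% higher. Genes with either 7-base word but not the longer one (443) had a median of −0.13, with 32.5% lower and 12.9% higher, and genes with neither (14023) had a median of 0.01, with 17.8% lower and 17.5% higher. Median UTR length was 2533, 2825 and 1035 bases in these classes, so both word classes have longer UTRs. In siSUV39H1 against DMSO, values the ranking did not use apart from the shared DMSO libraries, the medians were −0.01, −0.01 and −0.01. In siSUV39H1 against siNC, which shares the siNC libraries with the ranking, they were 0.28, 0.11 and 0.0049.

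**Figure D5:**
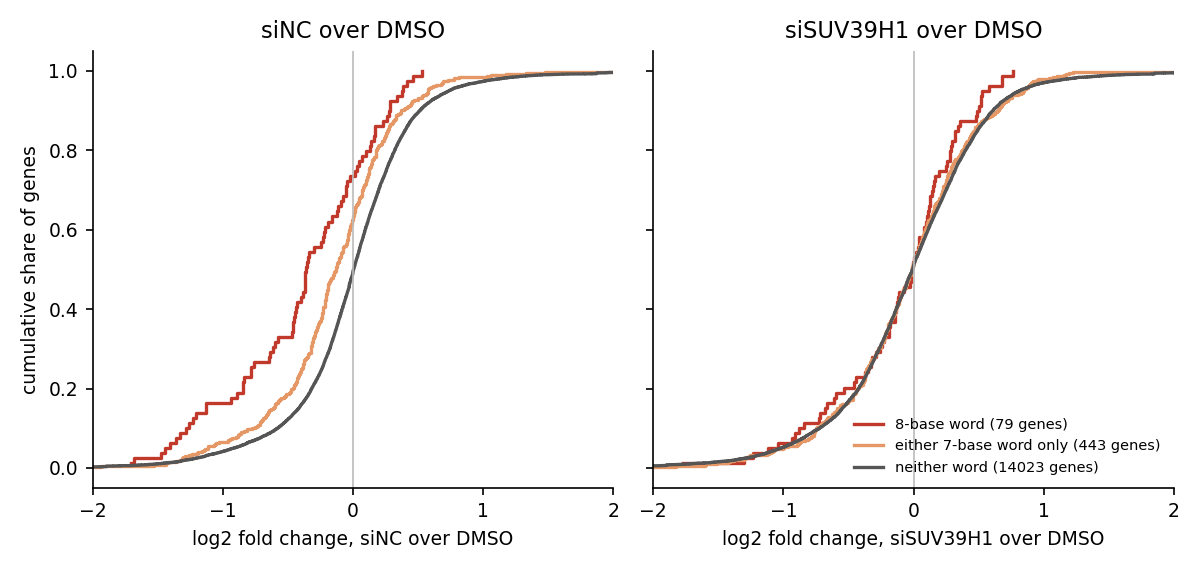
Cumulative share of genes by log2 change for genes whose 3′ UTR holds the 8-base word (79), either 7-base word only (443) or neither (14023), for siNC over DMSO and for siSUV39H1 over DMSO. The 8-base curve lies left of the others in siNC over DMSO (median −0.36) and close to them in siSUV39H1 over DMSO (median −0.01).

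Sites in genes named above or picked after their values were seen show the word in its context (GENCODE 29 UTR annotation, GRCh38; 30 bases along the transcript strand, word in capitals). CDK14, TPM4, CHST14, a carbohydrate sulfotransferase, and TFAP2B, a sympathetic lineage factor, hold the 8-base word. NOLC1 and BICD2, a dynein adaptor, hold the first 7-base word.
CDK14, chr7:91209251-91209280, plus strand: aggcagcttctTCGGAGAAgtgaaatataa
TPM4, chr19:16101482-16101511, plus strand: aatattttgtaTCGGAGAAgctttgagcac
CHST14, chr15:40472404-40472433, plus strand: ctgcctgtcatTCGGAGAAactctggctct
TFAP2B, chr6:50843749-50843778, plus strand: ttggaagaaaaTCGGAGAAacgttggtgtc
NOLC1, chr10:102162293-102162322, plus strand: aagggtgatgaTCGGAGActacttactttc
BICD2, chr9:92712922-92712951, minus strand: tagctttagacTCGGAGAtgagtgctttga
Each of these genes was lower with siNC than with DMSO. BICD2 averaged 16.5 CPM with siNC, 50.2 CPM with siSUV39H1 and 44.6 CPM with DMSO (siNC minus DMSO, −1.43 ± 0.09). CHST14 averaged 56.3 CPM with siNC, 164 CPM with siSUV39H1 and 137 CPM with DMSO (−1.28 ± 0.08). TFAP2B changed by −1.33, and by −0.66 in siSUV39H1 against DMSO. Genes that hold a word and did not fall include ELF3 and the amino acid transporter SLC7A5, which were higher with siNC (3.55 ± 0.23 and 0.47 ± 0.07).
ELF3, chr1:202015476-202015505, plus strand: cgtcctgggacTCGGAGActatggcctcgc
SLC7A5, chr16:87831361-87831390, minus strand: tccagtgggccCGGAGAAacctgatgaaca
SUV39H2 holds the 8-base word and was not called. Among the largest falls GANAB, OGFR, HGF, C7, HR and CADM3 hold neither word in the UTR searched, nor do STX12 and EGR1.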

How the data were processed

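RNA of SK-N-SH cells was extracted with Trizol and sequenced on DNBSEQ, per the labels' protocols. Tools in the submitters' processing notes are RSEM 1.3.1, Bowtie2 and DESeq2 1.4.5, with hg38 as the build and no step assigned to any. Annotation, strand setting and read filters are not given in the sources used. The deposited tables give an expected count, an FPKM and a TPM value per gene and library, per the file headers. Expected counts split ambiguous reads between similar genes, which can blur near-identical copies. The siNC and DMSO libraries stand in separate deposited tables, joined here on the gene identifier (18739 genes), and all single-library columns were mapped (0 left over).

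Expected counts were rounded, filtered with filterByExpr, scaled by TMM and fitted in 1 edgeR 4.0.16 quasi-likelihood model of all 12 libraries (R 4.3.3; 15051 genes, 4 group means, 8 residual degrees of freedom, biological coefficient of variation 8.87%). Genes were called at a Benjamini-Hochberg adjusted p under 0.05. CPM are TMM-scaled. The deposited TPM values gave levels per length and 2 alternatives with limma 3.58.1, and transcript length was derived from the authors' FPKM and counts. DESeq2 1.42.0 was another alternative. Of the identifiers 18574 matched RefSeq, which gave coordinates and promoters. UTRs came from GENCODE 29. On simulated counts (13986 genes, 200 changed) 70% of log2 changes of 0.5 and 98% of 1 were recovered, with 14 false calls. The changes were planted only in well-counted genes, and far fewer genes changed than were called in the data. Recovery in low genes was not tested.

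Gene lists (37) and members were chosen with earlier results of these data known. Genes named were the 15 largest rises and falls among called genes (5 CPM or more on average, groups not overlapping), the 5 largest TPM gains and losses, the 4 called members of smallest p per list (2 in short lists), the study's own genes and the line's markers. All others were named after their values were seen, and some genes that the rule picked are not reported here. The labels do not say that replicates came from separate cultures beyond the word triplicate, so p-values measure the spread between these libraries. In all, 17 other settings were tried, and same-numbered libraries did not deviate together (correlations −0.0322, −0.1641 and −0.3137).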

Additional observations from a re-analysis of the deposited data

How the results depend on the processing

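Over the 17 settings the number of genes called ranged from 4167 to 5437 (1933 to 2831 higher, 2211 to 2931 lower), and the number with at least a 2-fold change from 224 to 798. The lowest 2-fold counts came from limma-trend on log2(TPM + 1), with 224 genes (107 higher, 117 lower, where edgeR gave 243 and 515). A pseudocount of 1 TPM shrinks the changes of low genes by construction. For siSUV39H1, where these settings were added after seeing the data, the counts ranged from 6128 to 7519 against DMSO and from 3868 to 5349 against siNC. Sign was compared for the named genes only, and none of their called values changed sign. Among single genes named, 4135 of the values under other settings kept their side of the threshold, 107 were no longer called and 17 became called. Direction was not required of values that were called in neither fit. Of the list counts 1117 stayed within 1.5 times and 141 did not. Those that rest on 1 library are given with their lists. With the replicate number as a block, 4711 genes were called (2272 higher, 2439 lower). Deviations of same-numbered libraries did not correlate positively, whereas those of siNC replicate 2 and DMSO replicate 3 did (0.3121). Such values cannot show how the cultures were set up, and a batch shared under other numbers was not tested. With 3 libraries a group, small changes in low genes could be missed.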
